A study of Mus musculus with 28 samples.

Results

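A set of 10 genes of glucose uptake and glycolysis was followed across 28 mouse mesothelioma tumors. The genes were chosen by name, from the 55341 gene names that each of the deposited count matrices holds, and all 10 passed the filter on low counts. They are the glucose transporter Slc2a1, the hexokinases Hk1 and Hk2, the phosphofructokinases Pfkl and Pfkp, and Aldoa, Tpi1, Pgk1, Pkm and Ldha. Glycolysis breaks glucose down to pyruvate in the cytosol and yields ATP and building blocks without oxygen. Glucose enters the cell through transporters such as GLUT1, is trapped by hexokinase, is committed to the pathway by phosphofructokinase, and is then split and oxidized by a row of abundant enzymes that ends with pyruvate kinase and lactate dehydrogenase. Many tumors and activated immune cells run this pathway at a high rate, and many of its genes are targets of the hypoxia-inducible factors.

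Each tumor was a subcutaneous graft of AB1-HA, a mouse mesothelioma line, in a female BALB/c.AusBP mouse of 8 to 10 weeks of age. Mice were treated when tumors had reached 20 to 25 mm2, about 10 to 11 days after inoculation, and whole tumors were collected 7 days later. The 4 PBS tumors served as controls. The 5 ICB tumors (ICB, immune checkpoint blockade) received 100 µg each of the antibodies anti-CTLA-4 and anti-PD-L1 and 2 additional doses of anti-PD-L1, 2 days apart. The 5 tumors of the 5-FU group received 5-fluorouracil, a drug that blocks thymidylate synthesis, at 75 mg/kg intravenously. The 4 tumors of the cisplatin group received this DNA-crosslinking drug at 6 mg/kg intraperitoneally. The 5-FU+ICB and cisplatin+ICB groups, with 5 tumors each, received the drug and the antibodies. All grafts come from 1 cell line, and whole tumors also hold cells of the host. In such bulk RNA, fewer cells of a type and less RNA per cell cannot be told apart.

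Each library held between 23541733 and 33950805 counts. Levels are given as CPM, the counts of a gene scaled to the size of its library, after TMM normalization over the 28 tumors. Differences were tested by quasi-likelihood in edgeR with the Benjamini-Hochberg adjustment over all genes tested, and a gene was called when its adjusted p was under 0.05 and its absolute log2 fold change over 0.5. Of 7 mesothelial markers, Msln ranged from 0.5 to 654 CPM while Upk3b did not exceed 0.0671 CPM in any tumor, and none of the 7 but Msln reached 50 CPM in any tumor.

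The libraries differed in how their levels depended on gene length, and several of the 10 genes moved with it. For each tumor, the deviation of 8677 genes from their median log2 CPM was regressed on the log2 length of their longest transcript, with the 10 genes left out. This length slope was under -0.1 in 6 tumors and lay between -0.0543 and 0.12 in all others. The 6 were PBS 1 at -0.33, PBS 2 at -0.57, cisplatin 2 at -0.17, cisplatin 4 at -0.36, 5-FU+ICB 5 at -0.22 and cisplatin+ICB 1 at -1.06. In the last of these, ribosomal protein genes took 14.5% of the counts, and 5-FU+ICB 5 had 16.1% of its counts in mitochondrial genes. Over the 28 tumors, the log2 CPM of Hk1 and Hk2, whose longest transcripts run to 4278 and 5513 bases, had a Pearson r of 0.90 and 0.80 with the slope and a Spearman rho of 0.24 and 0.36. The r was -0.87 for Ldha and -0.81 for Pgk1 (rho -0.65 and -0.63), with transcripts of 1815 and 1825 bases, and 0.01 and 0.02 for Slc2a1 and Pfkl (rho -0.11 and -0.06). These correlations describe 28 libraries that share their scaling and rest in part on cisplatin+ICB 1, without which they were 0.74 for Hk1, 0.70 for Hk2, -0.72 for Ldha and -0.60 for Pgk1. The calls of the 10 genes are therefore read also with the slope as a covariate and with the 6 tumors left out, which leaves 2 PBS tumors.

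**Figure D1:**
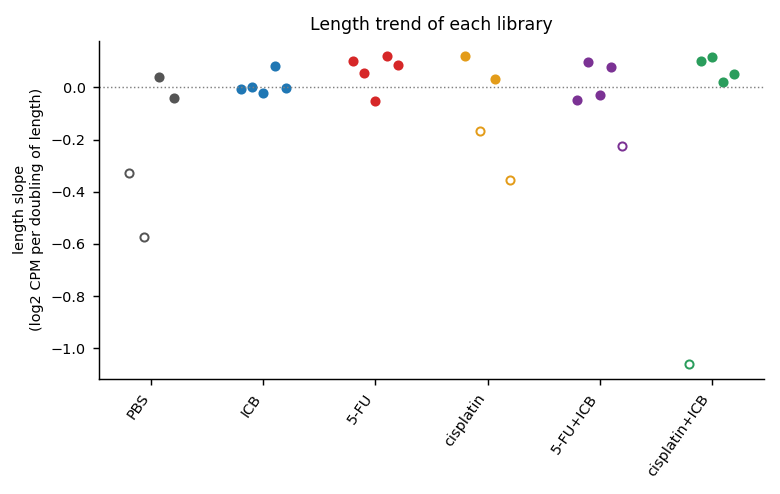
Length slope of each of the 28 libraries (change in log2 CPM for each doubling of transcript length), by treatment group, with open circles for the 6 tumors under -0.1. Cisplatin+ICB 1 lies at -1.06, and 2 of the 4 PBS tumors lie under -0.3.

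The promoters of 6 of the genes are shown, those of the transporter, Hk2 and Pfkl near the entry and of Tpi1, Pgk1 and Ldha further down, because hypoxia-inducible factors and Myc are known regulators of this pathway. Windows of 250 bases before to 50 after the start of a RefSeq transcript (GRCm38.p6) were searched on both strands for ACGTG and GCGTG, the 2 forms of the core of the hypoxia response element, and for CACGTG, an E-box that also holds ACGTG and counts for it on both strands. Capitals mark these letters, which read as CACGT or CACGC where the match is on the other strand. The windows are printed 5′ to 3′ on the strand of the gene.

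Slc2a1, chr4:119108495-119108794, plus strand: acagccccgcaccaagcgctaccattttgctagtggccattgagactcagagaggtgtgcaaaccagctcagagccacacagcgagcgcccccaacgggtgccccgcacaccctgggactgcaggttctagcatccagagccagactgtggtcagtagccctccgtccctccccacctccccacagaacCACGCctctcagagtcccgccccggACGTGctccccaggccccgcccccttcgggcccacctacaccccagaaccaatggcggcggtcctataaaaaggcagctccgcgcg

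Hk2, chr6:82774405-82774704, minus strand: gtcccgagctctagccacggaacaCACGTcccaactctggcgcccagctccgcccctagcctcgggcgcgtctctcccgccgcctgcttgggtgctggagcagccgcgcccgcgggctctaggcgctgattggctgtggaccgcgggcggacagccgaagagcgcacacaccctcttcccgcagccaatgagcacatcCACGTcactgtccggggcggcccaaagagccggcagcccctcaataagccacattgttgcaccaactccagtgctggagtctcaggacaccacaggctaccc

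Pfkl, chr10:78009758-78010057, minus strand: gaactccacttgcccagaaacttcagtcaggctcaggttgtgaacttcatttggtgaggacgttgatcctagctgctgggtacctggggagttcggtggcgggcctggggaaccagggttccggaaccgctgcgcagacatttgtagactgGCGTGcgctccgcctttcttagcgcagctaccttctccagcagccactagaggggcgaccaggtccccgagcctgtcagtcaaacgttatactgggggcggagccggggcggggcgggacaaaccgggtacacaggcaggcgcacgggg

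Pgk1, chrX:106186850-106187149, plus strand: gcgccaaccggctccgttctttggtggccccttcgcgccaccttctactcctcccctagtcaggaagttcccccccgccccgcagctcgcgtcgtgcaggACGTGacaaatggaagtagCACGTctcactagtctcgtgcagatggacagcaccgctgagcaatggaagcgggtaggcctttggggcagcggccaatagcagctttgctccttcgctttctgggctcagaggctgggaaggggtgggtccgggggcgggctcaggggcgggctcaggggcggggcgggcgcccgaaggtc

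Ldha, chr7:46845554-46845853, plus strand: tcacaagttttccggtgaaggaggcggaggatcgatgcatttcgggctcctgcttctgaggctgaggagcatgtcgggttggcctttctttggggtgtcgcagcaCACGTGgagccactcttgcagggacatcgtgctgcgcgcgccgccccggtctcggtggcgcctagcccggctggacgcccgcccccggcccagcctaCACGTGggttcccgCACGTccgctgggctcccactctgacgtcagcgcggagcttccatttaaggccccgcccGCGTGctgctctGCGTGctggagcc

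Tpi1, chr6:124814109-124814408, minus strand: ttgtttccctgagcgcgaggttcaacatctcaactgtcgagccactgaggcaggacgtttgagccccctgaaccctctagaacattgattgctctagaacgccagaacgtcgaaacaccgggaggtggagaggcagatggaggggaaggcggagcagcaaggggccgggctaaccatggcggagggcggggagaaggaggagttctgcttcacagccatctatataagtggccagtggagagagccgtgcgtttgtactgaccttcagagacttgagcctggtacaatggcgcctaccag

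All 10 genes had a window and 15 windows were found, of which 11 (73.3%), in 9 of the genes, held ACGTG or GCGTG. Of all 32851 windows of this length, 43.8% held one. Windows of a gene can overlap, and windows 2 and 3 of Aldoa hold the same match, which is counted in both. The first window of Ldha held 5 matches to ACGTG and 2 to GCGTG and was the only one of the 15 with CACGTG, which 7.15% of all windows hold. Slc2a1, Hk2 and Pgk1 held 2 matches each and Pfkl 1. Tpi1 held none. A match is a description of the letters, and no binding was measured.

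Per length, the 5 enzymes of the lower part of the pathway (Aldoa, Tpi1, Pgk1, Pkm and Ldha) were the most abundant. In the PBS tumors the mean CPM per kb of longest coding transcript was 1025 ± 149 for Aldoa, 819 ± 173 for Tpi1, 795 ± 77.8 for Pkm, 632 ± 138 for Ldha and 494 ± 146 for Pgk1 (SD, n = 4). It was 36.1 ± 3.73 for Pfkl, 24.1 ± 10.4 for Hk1, 19.0 ± 1.77 for Slc2a1, 16.9 ± 2.40 for Pfkp and 5.35 ± 3.28 for Hk2. Of neighbours in this order, Tpi1 and Pkm, Ldha and Pgk1, Hk1 and Slc2a1, and Slc2a1 and Pfkp differed by less than the larger of their SDs. In the 2 PBS tumors that were not of low slope, Pkm (754 ± 83.0) and Tpi1 (684 ± 22.2) stood in the other order, and Pgk1 was at 370.4 ± 14.2 and Pfkl at 38.6 ± 3.04 CPM per kb (SD, n = 2). There Ldha (526 ± 13.96) and Pgk1, and Hk1 (32.5 ± 3.41) and Slc2a1 (18.9 ± 2.95), differed by more than these SDs. In the ICB tumors Slc2a1 averaged 45.5 ± 12.0, Pfkp 41.0 ± 9.02 and Hk2 20.9 ± 3.77 CPM per kb and Aldoa 1082 ± 169 (SD, n = 5).

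**Figure D2:**
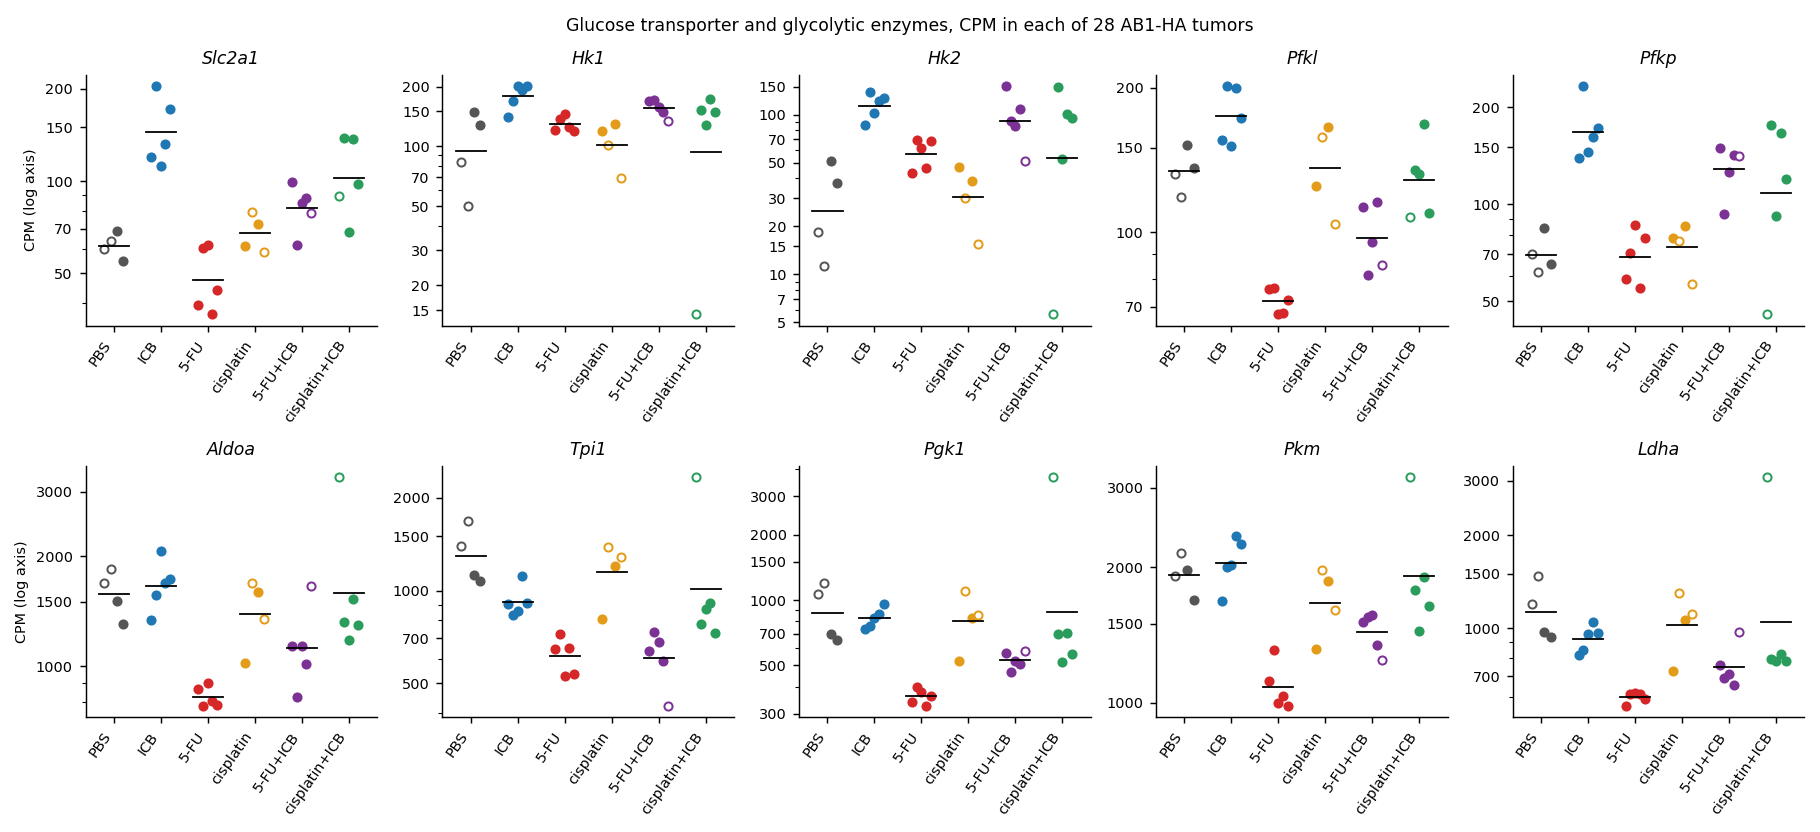
CPM (log axis) of the 10 genes in each of the 28 tumors by treatment group, with horizontal lines at the mean of the log2 values and open circles for the 6 tumors with a length slope under -0.1. The 5-FU tumors lie below every PBS tumor for Pfkl, Aldoa, Tpi1, Pgk1, Pkm and Ldha, and the ICB tumors lie above every PBS tumor for Slc2a1, Hk2 and Pfkp.

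Slc2a1 encodes GLUT1, the transporter that brings glucose into most cells, and lies at chr4:119108711-119137983 on the plus strand (GRCm38, GENCODE M21). It stood at 59.9, 63.8, 68.5 and 54.9 CPM in the PBS tumors and at 119.8, 204, 112, 133 and 172 CPM in the ICB tumors. The 5-FU tumors had 39.5, 60.4, 61.7, 36.8 and 44.2 CPM, and the 5-FU+ICB tumors 99.6, 61.9, 85.0, 88.3 and 78.8 CPM. With cisplatin the values were 61.4, 79.5, 72.4 and 58.7 CPM, and with cisplatin+ICB they were 89.4, 139, 68.3, 138 and 97.5 CPM. All ICB tumors lay above all PBS, 5-FU, cisplatin and 5-FU+ICB tumors. Slc2a1 rose with ICB (log2 fold change 1.29, SE 0.21, edgeR adjusted p = 4.56e-04), and did so with the length slope as a covariate (1.43) and without the 6 tumors (1.35). It did not pass the test in the 5-FU tumors (log2 fold change -0.34, SE 0.20, edgeR adjusted p = 0.218). Every 5-FU+ICB tumor lay below every ICB tumor, with a log2 fold change of -0.84 (SE 0.19) that missed the threshold in edgeR (adjusted p = 0.0815) and passed it in DESeq2 (adjusted p = 0.00671) and with the slope as a covariate (edgeR adjusted p = 0.0379). It was not called without the 6 tumors or in a fit of these groups alone.

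The hexokinases phosphorylate glucose and so keep it in the cell. Hk1, at chr10:62268855-62379908 on the minus strand, is the form that most tissues use, and Hk2, at chr6:82725025-82774454 on the minus strand, is the inducible form of muscle, fat, tumors and activated leukocytes. Hk2 stood at 18.3, 11.2, 51.0 and 37.4 CPM in PBS and at 86.0, 138, 103, 121 and 128 CPM in ICB tumors. The values were 43.0, 69.0, 62.0, 46.6 and 68.3 CPM with 5-FU and 151, 91.9, 85.0, 108 and 51.3 CPM with 5-FU+ICB. They were 47.2, 30.2, 38.5 and 15.6 CPM with cisplatin and 5.62, 149, 52.6, 102 and 95.7 CPM with cisplatin+ICB. The lowest values in the PBS and cisplatin+ICB groups were those of PBS 2 and cisplatin+ICB 1, which also had the lowest length slopes. Hk2 rose with ICB (log2 fold change 2.03, SE 0.35, edgeR adjusted p = 6.09e-04), with log2 fold changes of 1.58 and 1.47 in the fits that take the length slope into account. Its higher level in 5-FU tumors (log2 fold change 1.02, SE 0.34, edgeR adjusted p = 0.0362) was lost in both of these fits, at 0.45 (edgeR adjusted p = 0.272) and 0.48 (edgeR adjusted p = 0.320). In the 5-FU+ICB tumors it was higher than in PBS (log2 fold change 1.79, SE 0.35, edgeR adjusted p = 0.00134), also in both of these fits, at 1.41 and 1.39.

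Hk1 was at 83.6, 50.4, 149 and 129 CPM in PBS and at 141, 169, 201, 193 and 201 CPM in ICB tumors. It was at 122, 138, 145, 124 and 119 CPM with 5-FU and at 169, 170.1, 158, 148 and 135 CPM with 5-FU+ICB. It was at 119, 101, 129.9 and 69.3 CPM with cisplatin and at 14.3, 153, 128, 173 and 148 CPM with cisplatin+ICB, where the first tumor lay far below the other 4. Hk1 was called higher with ICB (log2 fold change 0.86, SE 0.20, edgeR adjusted p = 0.00308), but the groups overlapped through PBS 3. The call held with the slope as a covariate (0.57) and was lost without the 6 tumors (0.46). With 5-FU+ICB it was called higher than in PBS (log2 fold change 0.65, SE 0.20, edgeR adjusted p = 0.0147) and lost the call in both fits, at 0.41 and 0.30. Leaving out PBS 1 or PBS 2 alone also ended this call, with the log2 fold change between 0.43 and 0.84 over the tumors left out in turn.

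Phosphofructokinase takes the committed step of glycolysis. Pfkl, at chr10:77986947-78010083 on the minus strand, encodes the liver type and Pfkp, at chr13:6579768-6648777 on the minus strand, the platelet type, and the subunits form tetramers. Pfkl stood at 132, 118, 152 and 136 CPM in PBS and at 156, 202, 151, 200.1 and 173 CPM in ICB tumors. It was at 76.3, 76.7, 67.5, 67.7 and 72.2 CPM with 5-FU and at 113, 81.5, 95.6, 116 and 85.4 CPM with 5-FU+ICB. Cisplatin tumors had 125, 158, 166 and 104 CPM and cisplatin+ICB tumors 108, 135, 132, 168 and 109.7 CPM. The 5-FU tumors were tightly grouped below every tumor of each other group, and the 5-FU+ICB tumors lay below every PBS and every ICB tumor. Pfkl fell with 5-FU (log2 fold change -0.89, SE 0.13, edgeR adjusted p = 9.83e-04), and it was the only one of the 10 genes called lower in 5-FU+ICB than in ICB (log2 fold change -0.85, SE 0.13, edgeR adjusted p = 0.0161) and in 5-FU than in cisplatin tumors (log2 fold change -0.94, SE 0.16, edgeR adjusted p = 0.0119). All 3 falls were called with the slope as a covariate (-0.98, -0.83 and -0.99) and without the 6 tumors (-0.91, -0.79 and -0.96). The call against ICB was lost without ICB 4, where the count of called members was 0, and in a fit of these 2 groups alone (edgeR adjusted p = 0.177). The call against cisplatin was lost without cisplatin 2 or cisplatin 3, with no filter on low counts and with the replicate number as a block.

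Pfkp stood at 70.0, 61.4, 84.1 and 65.0 CPM in PBS and at 139, 233, 145, 161 and 172 CPM in ICB tumors. It was at 58.5, 70.6, 86.4, 55.1 and 78.3 CPM with 5-FU and at 149, 93.1, 126, 142 and 141 CPM with 5-FU+ICB. Cisplatin tumors had 78.7, 76.9, 85.5 and 56.7 CPM and cisplatin+ICB tumors 45.5, 176, 91.8, 166 and 119.9 CPM. All ICB and all 5-FU+ICB tumors lay above all PBS tumors, while 5-FU and PBS tumors overlapped. Pfkp rose with ICB (log2 fold change 1.31, SE 0.19, edgeR adjusted p = 2.48e-04) and with 5-FU+ICB (log2 fold change 0.92, SE 0.19, edgeR adjusted p = 0.00171), and its log2 fold change in 5-FU tumors was 0.01 (SE 0.19). Against ICB tumors its value in 5-FU+ICB tumors was -0.39 (SE 0.18, edgeR adjusted p = 0.439). The call in 5-FU+ICB held with the slope as a covariate (0.97) and was lost without the 6 tumors (0.86, edgeR adjusted p = 0.0568).

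Aldoa, at chr7:126795234-126800751 on the minus strand, encodes aldolase A, which splits fructose 1,6-bisphosphate into triose phosphates and is also abundant in skeletal muscle. It stood at 1694, 1839.9, 1509 and 1307 CPM in PBS and at 1341, 1563, 2059, 1689 and 1729 CPM in ICB tumors. It was at 868, 782, 899, 807 and 782 CPM with 5-FU and at 1135, 827, 1139, 1014 and 1653 CPM with 5-FU+ICB. Cisplatin tumors had 1021, 1691, 1599 and 1348 CPM and cisplatin+ICB tumors 3282, 1319.8, 1177, 1524 and 1299 CPM. The 5-FU tumors lay below all tumors of the PBS, ICB, cisplatin and cisplatin+ICB groups. Aldoa fell with 5-FU (log2 fold change -0.94, SE 0.19, edgeR adjusted p = 0.00492), also with the slope as a covariate (-0.54), and lost the call without the 6 tumors (-0.68, edgeR adjusted p = 0.0664). The highest Aldoa values of the ICB and 5-FU+ICB groups were those of ICB 3 and 5-FU+ICB 5, whose summed levels of 10 skeletal muscle markers, 3837 and 5763 CPM, were also the highest of their groups. These sums were 122 to 206 CPM in PBS and 11.8 to 1748 CPM in 5-FU tumors, where Aldoa was lowest. The part of muscle in these levels was not tested.

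Tpi1, at chr6:124810586-124814296 on the minus strand, encodes triosephosphate isomerase, which interconverts the triose phosphates that aldolase yields. It was at 1391, 1677, 1124 and 1074 CPM in PBS and at 905, 831, 859.6, 1117 and 913 CPM in ICB tumors. The values were 647, 722, 529, 648 and 537 CPM with 5-FU and 638, 736, 679, 590.0 and 423 CPM with 5-FU+ICB. They were 809, 1380.0, 1204 and 1283 CPM with cisplatin and 2333, 780.4, 871, 913 and 730.5 CPM with cisplatin+ICB. All 5-FU and 5-FU+ICB tumors lay below all PBS and all ICB tumors. Tpi1 fell with 5-FU (log2 fold change -1.10, SE 0.18, edgeR adjusted p = 0.00179) and with 5-FU+ICB (log2 fold change -1.10, SE 0.18, edgeR adjusted p = 5.78e-04). Both calls held with the slope as a covariate (-0.93 and -0.96) and without the 6 tumors (-0.75 and -0.66). With ICB its log2 fold change was -0.50 (edgeR adjusted p = 0.0327), short of the limit of 0.5 by less than 0.01, and it was called in 3 of the 9 fits that left out 1 tumor. Without the 6 tumors its value was -0.17.

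Pgk1, at chrX:106187100-106203699 on the plus strand, encodes phosphoglycerate kinase, the first enzyme of the pathway that makes ATP. It was at 1061, 1192, 694 and 658 CPM in PBS and at 734, 759, 828, 864 and 958 CPM in ICB tumors. The values were 340.4, 398, 378, 327 and 364 CPM with 5-FU and 571, 469, 526, 508 and 581 CPM with 5-FU+ICB. They were 522, 1101, 828 and 857 CPM with cisplatin and 3669, 696, 517, 709 and 567 CPM with cisplatin+ICB. The 5-FU tumors lay below every tumor of the other groups, and the 5-FU+ICB tumors below every PBS and ICB tumor. The PBS tumors split into PBS 1 and 2, which had low length slopes and the higher Pgk1 levels, and PBS 3 and 4. In the main test Pgk1 had the largest fall of the 10 genes with 5-FU (log2 fold change -1.33, SE 0.18, edgeR adjusted p = 5.34e-04). It was still called at a smaller size with the slope as a covariate (-0.83) and without the 6 tumors (-0.82, edgeR adjusted p = 0.00737). In both of these fits the fall of Pfkl was larger than that of Pgk1. Its fall in 5-FU+ICB against PBS (log2 fold change -0.76, SE 0.18, edgeR adjusted p = 0.00360) was not called in either fit, at -0.39 and -0.30. Against ICB it was -0.64 (edgeR adjusted p = 0.131), and there the call was gained in both fits, at -0.70 and -0.67. Against PBS, its value in ICB tumors changed sign between the main test (-0.12) and these fits (0.31 and 0.37), without being called in any.

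Pkm, at chr9:59656368-59679375 on the plus strand, encodes the M1 and M2 forms of pyruvate kinase, which makes pyruvate and ATP. It was at 1915, 2149, 1976 and 1691 CPM in PBS and at 1683, 1999.9, 2026, 2343 and 2249 CPM in ICB tumors. The values were 1119, 1311, 999, 1038 and 987 CPM with 5-FU and 1512, 1555, 1568, 1342 and 1247 CPM with 5-FU+ICB. They were 1318, 1973, 1862 and 1608 CPM with cisplatin and 3169, 1784, 1441, 1907 and 1645 CPM with cisplatin+ICB. The 5-FU tumors lay below all PBS, ICB, cisplatin and cisplatin+ICB tumors. Pkm fell with 5-FU (log2 fold change -0.82, SE 0.14, edgeR adjusted p = 0.00220), also with the slope as a covariate (-0.73) and without the 6 tumors (-0.66). With ICB its log2 fold change was 0.11 (SE 0.14). Counts per gene do not separate the M1 and M2 forms.

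Ldha, at chr7:46841475-46855627 on the plus strand, encodes the A chain of lactate dehydrogenase, which turns pyruvate into lactate. It was at 1200.4, 1481, 973 and 937 CPM in PBS and at 817, 853, 957, 1051 and 964 CPM in ICB tumors. The values were 562, 615, 616, 615 and 589.8 CPM with 5-FU and 758, 692, 709, 658 and 974 CPM with 5-FU+ICB. They were 726, 1304, 1062 and 1114 CPM with cisplatin and 3081, 793, 786, 828 and 784 CPM with cisplatin+ICB. The 5-FU tumors lay below every tumor of the other 5 groups, within a narrow range. Ldha fell with 5-FU (log2 fold change -0.94, SE 0.16, edgeR adjusted p = 0.00253), also with the slope as a covariate (-0.52) and without the 6 tumors (-0.59). Its fall with 5-FU+ICB (log2 fold change -0.59, SE 0.16, edgeR adjusted p = 0.00874) was not called in either fit, at -0.30 and -0.36. With ICB its value changed sign, from -0.30 to 0.06 and 0.04, and was not called.

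Some counts of the lower enzymes may be shared with near copies. Transcripts of 17 other genes, 12 of them pseudogenes, share at least 10% of their 31-base words with Ldha, and their counts came to a median of 5.3% of those of Ldha and its copies. For Pgk1 there were 4 such pseudogenes with a median share of 6.46% and at most 12.3%, and for Pkm 6 such genes with 1.25%. Aldoa and Tpi1 had 2 each with shares of at most 0.0118%, and Slc2a1, Hk1, Hk2, Pfkl and Pfkp had none. The levels of Ldha and Pgk1 carry this uncertainty. Slc2a1, Hk1, Hk2, Pfkp, Aldoa and Tpi1 also overlap genes on the other strand, and whether reads were assigned by strand is not given in the sources used here.

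With ICB alone, the transporter, both hexokinases and Pfkp were higher than in PBS tumors, and none of the 5 lower enzymes was called. Of the 10 genes, 4 were called, Slc2a1, Hk1, Hk2 and Pfkp, and all were higher. In this comparison 37.8% of all 17916 genes tested were called and 19.0% were called higher. Slc2a1, Hk2 and Pfkp did not overlap between the groups, as 15.8% of all genes did not in this direction. The median log2 fold change was 0.27 over the 10 genes and -0.03 over all genes. Slc2a1, Hk2 and Pfkp remained called without the 6 tumors, where 11.3% of all genes were called higher. The 5 lower enzymes had log2 fold changes from -0.50 to 0.11. Pfkl was at 0.42 (edgeR adjusted p = 0.0176), under the fold limit. The sum of 5 pan-leukocyte markers was 485 to 653 CPM in PBS and 1266 to 3029 CPM in ICB tumors, with 4 of the 5 called higher and none at 0. All 6 T cell and all 6 macrophage markers were called higher too, with sums of 159.6 to 638 and 2802 to 7724 CPM, against 22.8 to 30.6 and 1349 to 2059 CPM in PBS tumors. Of 7 proliferation genes, 4 were called lower. The summed mesothelial markers were 54.8 to 218 CPM, below the 273 to 361 CPM of PBS tumors, with 0 of the 4 tested called lower and Wt1 called higher. Neutrophil markers summed to 59.5 to 166 CPM in ICB and 9.32 to 18.5 CPM in PBS tumors, with 2 of 5 called higher. Ribosomal protein genes took 3.60 to 4.22% of the counts in ICB and 5.11 to 8.71% in PBS tumors. Mitochondrial genes took 2.69 to 4.82% and 1.53 to 2.37%, also without overlap. The part of these lists and shares in the levels of the 10 genes was not tested.

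With 5-FU alone, the lower enzymes and Pfkl were lower than in PBS tumors. Of the 10 genes, 7 were called, of which 6 (Pfkl, Aldoa, Tpi1, Pgk1, Pkm and Ldha) were lower and Hk2 was higher. Of all genes, 13.0% were called lower and 9.98% higher, 23.0% in all. The same 6 genes did not overlap between the groups, as 17.8% of all genes did not in this direction. Their fitted folds lay between 0.398 for Pgk1 and 0.566 for Pkm. The median log2 fold change was -0.85 over the 10 genes and -0.01 over all genes. With the slope as a covariate all 6 remained called lower, where 2.59% of all genes were. Without the 6 tumors of low slope, 5 remained called lower (Pfkl, Tpi1, Pgk1, Pkm and Ldha), where 0.513% of all genes were. Leaving out each tumor in turn changed none of the 6 calls, while that of Hk2 was lost in 5 of 9 such fits. In the fit with all 6 groups joined, 4 of the 10 genes were called, so some of the 6 calls were lost there. The summed mesothelial markers, a sum made up mostly of Msln, were 273 to 361 CPM in PBS and 46.8 to 178 CPM in 5-FU tumors, with 1 of the 7 at 0 in every 5-FU tumor. This sum was 54.8 to 218 CPM in ICB tumors and 37.8 to 169 CPM in 5-FU+ICB tumors, also below PBS. Of the 4 tested, 0 were called lower with 5-FU and 1, Wt1, was called higher. Of the T cell markers, 4 of 6 were called higher with a median log2 fold change of 2.36, and their sum was 22.8 to 30.6 CPM in PBS and 34.2 to 393 CPM in 5-FU tumors, without overlap. Of the macrophage markers, 2 of 6 were called higher (median 1.08), with sums of 1349 to 2059 and 1811 to 6221 CPM. None of these immune markers was at 0 in every tumor of a group, and 3 of 7 proliferation genes were called lower. Ribosomal protein genes took 3.62 to 4.17% of the counts in 5-FU and 5.11 to 8.71% in PBS tumors, and mitochondrial genes 2.72 to 6.80% and 1.53 to 2.37%, both without overlap. The part of these lists and shares in the falls was not tested.

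**Figure D3:**
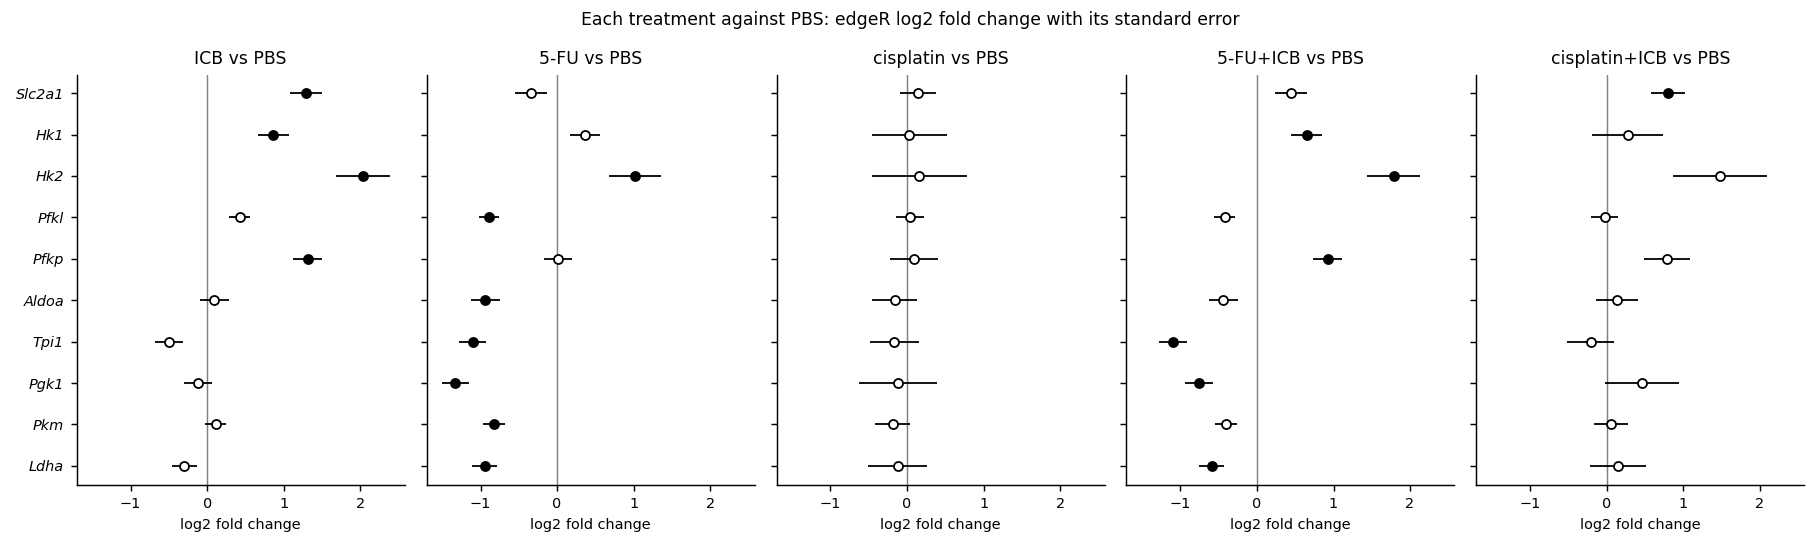
Log2 fold change of the 10 genes in each treatment group against PBS, from edgeR's quasi-likelihood test, with bars of 1 SE and filled circles for called genes. With 5-FU, 6 genes are called lower, at -0.82 to -1.33. With cisplatin none is called, and no value lies beyond -0.19 or 0.16.

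In the 5-FU+ICB tumors, 6 of the 10 genes were called against PBS, where 40.7% of all genes were. Hk1, Hk2 and Pfkp were called higher and Tpi1, Pgk1 and Ldha lower, where 21.9% of all genes were called higher and 18.7% lower. Hk2 and Pfkp were higher and Pfkl, Pkm, Pgk1 and Tpi1 lower without overlap, as 10.9% and 14.7% of all genes were. Among these, Pfkl (-0.42) and Pkm (-0.40) were under the fold limit. The summed leukocyte markers ranged from 650.3 to 4590 CPM in these tumors and from 485 to 653 CPM in PBS, with 5 of 5 called higher, and the T cell markers from 44.9 to 1333 against 22.8 to 30.6 CPM, with 6 of 6 called higher. Of the macrophage markers 4 of 6, and of the skeletal muscle markers 2 of 10, were called higher, and 3 of 7 proliferation genes were called lower. The summed mesothelial markers were 37.8 to 169 CPM against 273 to 361 CPM, with Msln called lower and Wt1 and Krt19 higher. The part of these lists in the values was not tested. Hk2 and Tpi1 remained called without the 6 tumors, where 7.18% of all genes were called. With the slope as a covariate the calls were Slc2a1, Hk2, Pfkp and Tpi1, where 43.6% of all genes were called.

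Set against ICB tumors, 5-FU+ICB tumors had lower fitted values of all 10 genes, from -0.22 for Hk1 to -0.85 for Pfkl, with a median of -0.52 against 0.02 over all genes. Only Pfkl was called, where 0.162% of all genes were called lower. Slc2a1, Pfkl, Tpi1, Pgk1 and Pkm did not overlap between the groups, as 1.67% of all genes did not in this direction. DESeq2 called the same 5 genes, where it called 0.436% of all genes lower. With the slope as a covariate the calls were Slc2a1, Pfkl, Aldoa, Pgk1 and Pkm (0.614% of all genes), and without the 6 tumors they were Pfkl, Aldoa and Pgk1 (0.192%).

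**Figure D4:**
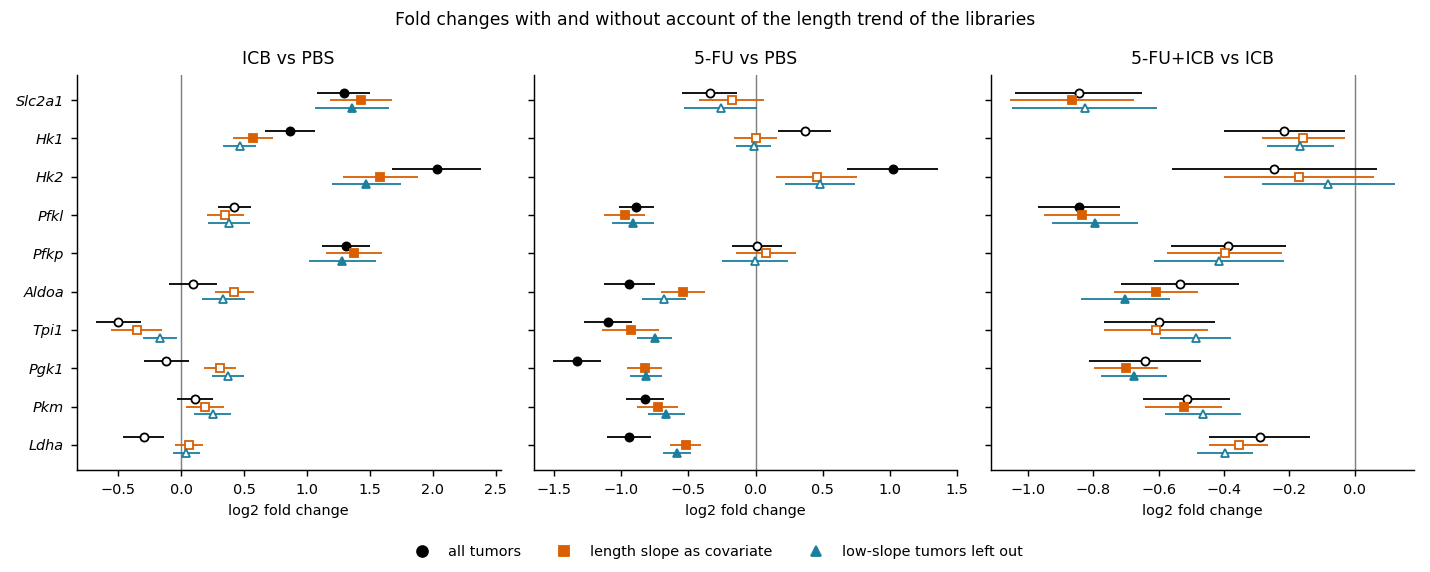
Log2 fold change of the 10 genes in 3 comparisons, with all tumors, with the length slope as a covariate and without the 6 tumors of low slope. Bars are 1 SE, and filled symbols are called. The falls of Pfkl, Tpi1, Pgk1, Pkm and Ldha with 5-FU are called in each of the 3 fits, whereas Hk2 with 5-FU moves from 1.02 to 0.45 and 0.48.

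Set against 5-FU tumors, 5-FU+ICB tumors had higher fitted values of all 10 genes, from 0.00 for Tpi1 to 0.92 for Pfkp, and edgeR called 0 of them, where it called 0.0112% of all genes. Of the 10, 8 had an unadjusted p under 0.05. Slc2a1, Pfkl, Pfkp, Pgk1 and Ldha were higher without overlap, as 0.91% of all genes were. DESeq2 called Slc2a1, Pfkp and Pgk1 higher, where it called 1.26% of all genes higher. Leaving out 5-FU+ICB 2 gave 5 calls in edgeR, of Slc2a1, Pfkl, Pfkp, Aldoa and Pgk1, where 10.9% of all genes were then called. Leaving out 5-FU 3 gave 2, of Slc2a1 and Pfkp, where 3.58% were. Of these tumors, 5-FU+ICB 2 had the lowest summed leukocyte (650.3 CPM) and T cell markers (44.9 CPM) of its group, and 5-FU 3 the highest of its group (2175 and 393 CPM), and their part in the calls was not tested. These comparisons share their tumors with those against PBS, so the values are set side by side and not counted as separate evidence. The interaction of 5-FU with ICB, which asks whether the drug's effect differed when ICB was given, was called for 0 of the 10 genes in edgeR (lowest adjusted p = 0.10) and 0 in DESeq2, with 4 at an unadjusted p under 0.05. Of all genes, 0.0893% were called in edgeR. Leaving out PBS 3 gave 3 calls, of Hk2, Pgk1 and Ldha, where 9.27% of all genes were then called, and leaving out PBS 4 gave 1, of Pgk1, where 5.56% were. PBS 3 and PBS 4 were the PBS tumors not of low length slope (0.039 and -0.043). The part of the slope in these calls was not tested.

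With cisplatin no change in these genes was called at 7 days. Against PBS, edgeR and DESeq2 called 0 of the 10, as edgeR called 0.0% of all genes, and none had an unadjusted p under 0.05. The log2 fold changes ranged from -0.19 for Pkm (SE 0.23) to 0.16 for Hk2 (SE 0.63), and their SE went up to 0.63, so that changes of the size of those with 5-FU could have been missed for some genes. In the cisplatin+ICB tumors Slc2a1 was higher than in PBS (log2 fold change 0.80, SE 0.23, edgeR adjusted p = 0.0451), the only call of the 10, where 6.1% of all genes were called and 4.7% called higher. Hk2 (1.47) and Pfkp (0.79) were called with the slope as a covariate (0.93 and 0.59) and without the 6 tumors (1.31 and 1.02), where 9.91% and 8.13% of all genes were called higher. Slc2a1 was at 0.97 without the 6 tumors, which was not called. Without cisplatin+ICB 1, the library with the lowest length slope, there were 5 calls, of Slc2a1, Hk1, Hk2, Pfkp and Tpi1, where 35.3% of all genes were then called, and without any 1 of the PBS tumors there were 0. The call of Slc2a1 held in 2 of 9 such fits and was lost also without cisplatin+ICB 2, 4 or 5. In cisplatin+ICB tumors against PBS, 5 of 6 T cell markers, 4 of 5 neutrophil markers and 3 of 5 leukocyte markers were called higher, with median log2 fold changes of 2.77, 2.65 and 1.46. Their sums in cisplatin+ICB tumors were 20.9 to 348, 35.2 to 107 and 777 to 1902 CPM, against 22.8 to 30.6, 9.32 to 18.5 and 485 to 653 CPM in PBS tumors, and their part in the values of Slc2a1, Hk2 and Pfkp was not tested. Against ICB tumors, cisplatin+ICB tumors had 0 calls in edgeR, as 0.0% of all genes, and 0 in DESeq2, with 2 of the 10 at an unadjusted p under 0.05. Against cisplatin tumors edgeR called 0 of the 10, as 0.0% of all genes, with 3 at an unadjusted p under 0.05, and DESeq2 called Slc2a1, as 2.02% of all genes, higher. Slc2a1, Hk2 and Pfkp were called higher in edgeR without cisplatin+ICB 1, where 8.31% of all genes were, and with the slope as a covariate, where 4.93% of all genes were. The interaction of cisplatin with ICB was called for 0 of the 10 in edgeR, as for 0.0% of all genes, and 0 in DESeq2, with none at an unadjusted p under 0.05.

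The 2 drugs were compared with all 6 groups in 1 model, each at its 1 dose and route, so that drug and dose cannot be told apart. In 5-FU tumors Pfkl was lower than in cisplatin tumors, the only call of the 10, where 0.27% of all genes were called lower. Pfkl, Aldoa, Tpi1, Pgk1, Pkm and Ldha were lower without overlap, as 7.22% of all genes were. Their log2 fold changes were -0.94, -0.77, -0.92, -1.19, -0.63 and -0.81, and those not called had edgeR adjusted p-values of 0.109 to 0.206. With the slope as a covariate all 6 were called, where 1.03% of all genes were called lower, and without the tumors of low slope Pfkl and Pgk1 were (0.0883%). The summed mesothelial markers were 46.8 to 178 CPM with 5-FU and 216 to 309 CPM with cisplatin, with 0 of the 4 tested called. Ribosomal protein genes took 3.62 to 4.17% and 4.22 to 6.91% of the counts, also without overlap. The part of these in the falls was not tested. The call of Pfkl was lost without cisplatin 2 or cisplatin 3, where 0 of the 10 were called. It was also lost with no filter on low counts and with the replicate number as a block. Between 5-FU+ICB and cisplatin+ICB, edgeR called 0 of the 10, where 0.297% of all genes were called. Of the 10, 6 had an unadjusted p under 0.05, and DESeq2 called Pgk1 and Tpi1 lower, as 2.62% of all genes. In edgeR, Tpi1 was called without 5-FU+ICB 2, where 11.6% of all genes were then called, and Pgk1 and Tpi1 without cisplatin+ICB 5, where 6.1% were.

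The ratio of paired isozymes, taken within each tumor, differed between groups. Such a ratio does not depend on the scaling between libraries, but paired genes differ in length, so it can still carry the length trend. The lowest Hk2 to Hk1 ratios in PBS (1 and 2), cisplatin (4), 5-FU+ICB (5) and cisplatin+ICB (1) were those of tumors of low length slope. The ratio of Hk2 to Hk1 CPM was 0.220, 0.224, 0.342 and 0.291 in PBS tumors, 0.611, 0.817, 0.513, 0.629 and 0.636 in ICB tumors and 0.354, 0.501, 0.429, 0.374 and 0.572 in 5-FU tumors. It was 0.897, 0.540, 0.536, 0.730 and 0.381 with 5-FU+ICB, 0.397, 0.298, 0.297 and 0.226 with cisplatin and 0.395, 0.979, 0.410, 0.587 and 0.647 with cisplatin+ICB. Every ICB, 5-FU, 5-FU+ICB and cisplatin+ICB tumor lay above every PBS tumor. The mean log2 ratio was -1.92 ± 0.31 (SD, n = 4) in PBS and -0.66 ± 0.24 (SD, n = 5) in ICB tumors. Both ratios were tested in 11 comparisons by exact permutation (two-sided), with adjustment by Benjamini-Hochberg over the 22 tests, and 9 passed, each with p = 0.0159 and an adjusted p of 0.0388. This p is the smallest that 5 against 4 tumors can give. For Hk2 to Hk1 these were the differences from PBS in ICB (1.26 on the log2 scale), 5-FU (0.73), 5-FU+ICB (1.16) and cisplatin+ICB (1.11). Without the 6 tumors, where PBS keeps 2 and no small p can be had, the differences were 1.01, 0.48, 1.07 and 0.99.

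The ratio of Pfkp to Pfkl was 0.530, 0.520, 0.553 and 0.479 in PBS tumors, 0.891, 1.15, 0.960, 0.804 and 0.994 in ICB tumors and 0.767, 0.920, 1.28, 0.813 and 1.08 in 5-FU tumors. It was 1.32, 1.14, 1.31, 1.23 and 1.65 with 5-FU+ICB, 0.629, 0.486, 0.517 and 0.545 with cisplatin and 0.423, 1.31, 0.693, 0.988 and 1.09 with cisplatin+ICB. Every ICB, 5-FU and 5-FU+ICB tumor lay above every PBS tumor, and the 5-FU+ICB tumors were the highest on average. The difference from PBS was 0.88 on the log2 scale in ICB, where Pfkp was higher, 0.88 in 5-FU, where Pfkl was lower, and 1.34 in 5-FU+ICB. Against ICB tumors the ratio with 5-FU+ICB was higher by 0.47, with an overlap of the groups, and against cisplatin tumors that with 5-FU was higher by 0.82. Without the 6 tumors these 5 differences were 0.89, 0.89, 1.28, 0.39 and 0.74. Cisplatin tumors differed from PBS by 0.06 (exact permutation p = 0.629).

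**Figure D5:**
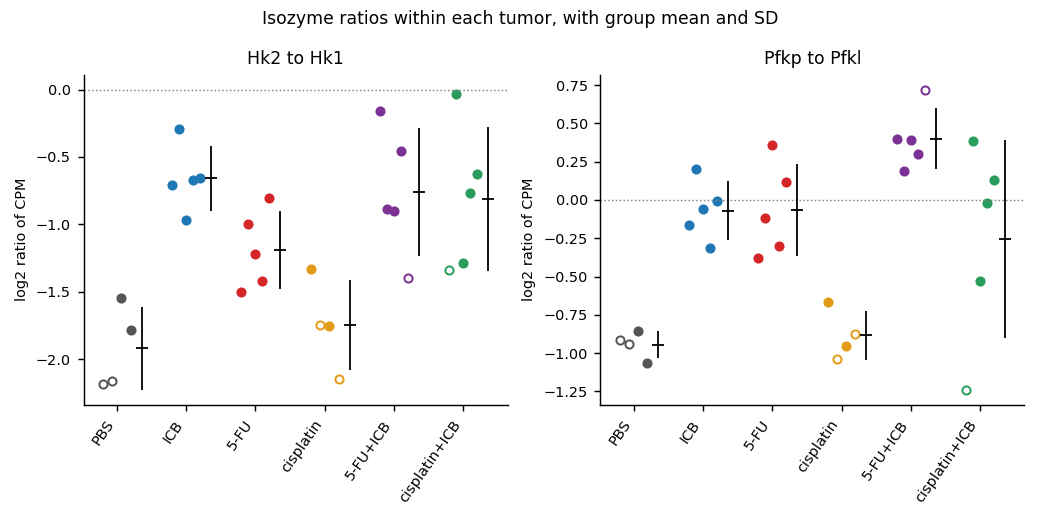
Log2 ratio of Hk2 to Hk1 CPM and of Pfkp to Pfkl CPM in each tumor, with the group mean and SD beside the points and open circles for the 6 tumors of low length slope. PBS tumors lie between -2.19 and -1.55 for Hk2 to Hk1 and between -1.06 and -0.85 for Pfkp to Pfkl, below all ICB and 5-FU+ICB tumors.

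Other genes of the pathway were read from a list of 16. With 5-FU, 9 of the 16 were called against PBS, 7 lower and 2 higher, where 13.0% and 9.98% of all genes were. The median log2 fold change of the 16 was -0.43. The lower genes included Eno1 (-1.05, SE 0.13) and Gapdh (-0.87, SE 0.14), which act between Tpi1 and Pkm, and Pdk1 (-2.02, SE 0.20), the kinase that holds pyruvate back from the mitochondria. Aldoc (-2.47), Gpi1 (-0.54), Pgam1 (-0.82) and Ldhb (-0.63) were the others. The higher genes were Hk3, the hexokinase of myeloid cells, at 1.28, and Pfkfb3, which makes the activator of phosphofructokinase, at 1.64. When the 6 tumors were left out, Eno1 (-0.94), Gapdh (-0.88), Pgam1 (-0.54), Aldoc (-2.16) and Pdk1 (-1.67) remained called lower and none higher. In that fit 0.513% of all genes were called lower. With the slope as a covariate the same 5 genes were called lower, where 2.59% of all genes were. Hk3 (1.54) and Pfkfb3 (1.83) stayed called higher there.

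With ICB, 5 of the 16 were called against PBS and all were higher, where 37.8% of all genes were called and 19.0% called higher. Hk3 had a log2 fold change of 4.05, Pfkfb3 3.26, Pfkfb4 1.06, the lactate exporter Slc16a3 2.72 and the transporter Slc2a3 2.49. Eno1 (-0.20), Gapdh (-0.08) and Pgam1 (0.10) were not called. The same 5 genes were called without the 6 tumors, where 11.3% of all genes were called higher. With the covariate they were called too, with Aldoc (1.25) higher and Slc16a1 (-0.54) lower beside them. With 5-FU+ICB against ICB, 1 of the 16 was called, Pdk1, which was lower (-1.25), where 0.162% of all genes were. Aldoc (-1.67), Eno1 (-0.55), Pdk1 (-1.30) and Pgam1 (-0.62) were called lower with the covariate, and Pdk1 (-1.30) and Pgam1 (-0.54) without the 6 tumors. In these fits 0.614% and 0.192% of all genes were called lower.

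Of 13 genes that hypoxia induces outside glycolysis, 8 were called with 5-FU against PBS, 7 lower and P4ha2 higher (0.66), where 13.0% and 9.98% of all genes were. The median log2 fold change was -0.68. Car9, the carbonic anhydrase of hypoxic tumor cells, had a log2 fold change of -2.78 (SE 0.35, edgeR adjusted p = 3.61e-04), Bnip3, a mitophagy receptor, -2.22 and Ankrd37 -2.19. Ddit4 (-1.51), Kdm3a (-0.78), Egln3 (-0.77) and Ero1l (-0.68) were lower too. Car9, Bnip3 and Ddit4 were the 3 of the 13 called without the 6 tumors, all lower, where 0.513% of all genes were. In 5-FU+ICB against ICB, Car9 (-2.06), Bnip3 (-1.57) and Ero1l (-0.93) were called lower, where 0.162% of all genes were. The same 3 were called without the 6 tumors, where 0.192% of all genes were called lower. Against cisplatin, 5-FU tumors had 3 of the 13 called lower, Car9 (-3.27), Ankrd37 (-2.64) and Kdm3a (-0.95), where 0.27% of all genes were. The call of Kdm3a was lost without the 6 tumors, where Car9, Ankrd37, Bnip3 and Ddit4 were called lower, as 0.0883% of all genes were. With the covariate 6 of the 13 were called lower, Kdm3a among them, as 1.03% of all genes were. With ICB against PBS, 3 of the 13 were called, all higher, Ndrg1 (1.13), P4ha2 (0.88) and Ero1l (0.56), where 19.0% of all genes were, and the median of the 13 was 0.18. Ndrg1 remained called with the covariate (1.42) and without the 6 tumors (1.33). Oxygen was not measured.

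Side branches of glucose use were read from lists of their own. Of 7 genes of the pentose phosphate pathway, which makes NADPH and ribose, 3 were called lower with 5-FU, Tkt (-0.72), Taldo1 (-0.67) and Pgls (-0.64), where 13.0% of all genes were. Tkt (-0.53) was the only call of the 7 with the slope as a covariate, and 0 were called without the 6 tumors. With ICB, G6pdx (0.73) and Pgd (0.54), its oxidative enzymes, were called higher and Tkt (-0.57) and Pgls (-0.55) lower, where 37.8% of all genes were called. G6pdx and Pgd remained called higher with the covariate (0.86 and 0.76) and without the 6 tumors (0.75 and 0.69), while none of the 7 was called lower in either. The median log2 fold change of the 7 was -0.28, against 0.20 and 0.06 in these 2 settings. Of 10 genes of gluconeogenesis and glycogen, 2 were called with 5-FU, Pck2 (-1.03) and Pcx (1.32), where 23.0% of all genes were called. With the covariate the calls were Fbp1 (2.49) and Pck2 (-0.97), and 0 of the 10 were called without the 6 tumors. With ICB, 5 of the 10 were called, where 37.8% of all genes were, 3 higher and 2 lower. The higher genes were the glycogen phosphorylase Pygl (2.72), Gbe1 (0.67) and Pgm1 (0.72), and the lower ones Pgm2 (-0.68) and Pck2 (-0.51). All but Pck2 were called in the same direction with the covariate and without the 6 tumors, where Pygl was at 3.01 and 2.77 and Pgm2 at -0.73 and -0.54.

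The genes whose levels followed the 10 genes most closely were sought among 10275 genes with a mean of at least 10 CPM. The measure was the Pearson r over the 28 tumors between the log2 CPM of a gene and the mean z-score of the 10 genes. The first 5 were Map2k1, a kinase of the MAP kinase cascade (0.93), Aldoc (0.90), the glycolytic isomerase Gpi1 (0.89), Car2, a carbonic anhydrase (0.87), and Ero1l, an oxidase of the endoplasmic reticulum (0.86). After group means were subtracted, r was 0.81 for Map2k1 and 0.47 to 0.58 for the other 4. Without cisplatin+ICB 1 the 5 values lay between 0.88 and 0.94. The tumors share library scaling and length trend, so these values are descriptions.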

How the data were processed

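Total RNA of 28 tumors was sequenced as reads of 100 bases. The authors demultiplexed with bcl2fastq 2.20.0.422, pseudoaligned to the mouse transcriptome (GRCm38/mm10) with kallisto 0.46.0 and summed transcripts to genes with tximport. The deposited values are expected counts per gene, not normalized, in 2 matrices, and the 9 tumors of the PBS and ICB groups are in both. Of all values 23.7% were not equal to a whole number, compared with no tolerance, and they were rounded. In each matrix 26 rows carry a date in place of a gene name. The annotation release is not given in the sources used here.

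Genes were kept by edgeR's filterByExpr (17916 for the 5-FU matrix, 17819 for the cisplatin matrix, 18521 joined) and scaled by TMM. All groups of a matrix entered 1 model, fitted with the quasi-likelihood test of edgeR 4.0.16 (R 4.3.3, limma 3.58.1) and Benjamini-Hochberg adjustment. Genes were called at an adjusted p under 0.05 with a log2 fold change beyond 0.5 in either direction. The SE is the log2 fold change divided by the root of F. The drugs were compared in a joined model of 6 groups. Alternatives were DESeq2 1.42.0, other scalings, filters and samples in the fit, each tumor left out, the replicate number as a block and, chosen after seeing the data, the length slope. Isozyme ratios were compared by exact permutation (scipy 1.17.1, Python 3.11.15). On counts simulated for 5-FU+ICB against ICB over 17519 genes, edgeR's test recovered 99.5% of 200 genes changed by 2 on the log2 scale. The simulation gave every gene the same spread, held no length trend and changed only genes of higher counts. Smaller changes, such as those of the 10 genes in this comparison (-0.22 to -0.85), were not simulated.

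The members and lists were chosen with earlier results of these data known. All 10 members were named. Of the other lists, called genes and Gapdh, Eno1, Gpi1, Pgam1, Car9, Pdk1 and Slc16a3 could be named. The genes most like the members were the 5 with the highest r. The edgeR p-values weigh a difference between groups against the spread between these tumors, estimated over all groups of the model. The smallest permutation p depends on the group sizes alone. The length of a gene is that of its longest transcript in GENCODE M21, and promoters are from RefSeq (GRCm38.p6).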

Additional observations from a re-analysis of the deposited data

Results flagged for a closer look

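Of 60 sets of values (10 genes in 6 groups), 7 held a tumor that stood apart from the rest of its group by Dixon's test at 95%, where chance gives about 1 in 20. In 6 of the 7 this tumor was cisplatin+ICB 1, the library with the lowest length slope. Its Hk1 level, at 14.3 CPM, was the lowest of the group, the nearest being 128 CPM. Its Aldoa level was 3282 CPM against 1524 CPM for the next tumor. Tpi1 was at 2333 CPM against 913 CPM, and Pgk1 at 3669 CPM against 709 CPM. Pkm was at 3169 CPM against 1907 CPM, and Ldha at 3081 CPM against 828 CPM. The remaining one was Tpi1 in ICB 4, at 1117 CPM, the highest of its group, with 913 CPM next.

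Pfkl was called between the 2 drugs, with a log2 fold change between 5-FU and cisplatin tumors of -0.94. The call was lost without cisplatin 2 (-0.87) or cisplatin 3 (-0.84), with no filter on low counts (-0.86) and with the replicate block (-0.91), and held in the other 7 fits that left out 1 tumor.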

How the results depend on the processing

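Of the 10 genes, 0 were called with cisplatin against PBS, with cisplatin+ICB against ICB and in the interaction of cisplatin with ICB under every alternative run. The 4 calls with ICB and the 7 with 5-FU against PBS stayed within 1.5 times under the alternatives, except for 4 with 5-FU where all 6 groups were joined. For 5-FU+ICB against PBS the count was 3 with 6 groups joined, 3 with only the groups compared and 2 without the tumors of low length slope. For cisplatin+ICB against PBS it was 0 by library size alone, 0 with no filter, 0 with only the groups compared, 2 by DESeq2, 3 with the slope as a covariate and 2 without the tumors of low slope. For 5-FU+ICB against ICB it was 2 by library size alone, 5 by DESeq2, 0 with only the groups compared, 5 with the covariate and 3 without the tumors of low slope. For 5-FU against cisplatin it was 2, 3, 6, 6 and 2 in the same order, and 0 with no filter. DESeq2 called 3 for 5-FU+ICB against 5-FU, 1 for cisplatin+ICB against cisplatin and 2 for 5-FU+ICB against cisplatin+ICB, and the covariate gave 3 for the second and 1 for the third of these. The share of all genes called also moved, for 5-FU+ICB against PBS from 40.7% to 7.18% without the tumors of low slope. Counts of the 10 genes alone do not show whether they moved more than other genes. The causes were not tested.

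Leaving out 1 tumor at a time gave 4 to 5 calls for ICB, 6 to 8 for 5-FU, 4 to 7 for 5-FU+ICB and 0 to 5 for cisplatin+ICB against PBS. The 5 calls with cisplatin+ICB came without cisplatin+ICB 1, where 35.3% of all genes were called, against 6.1% with all tumors. The counts were 0 to 1 for 5-FU+ICB against ICB, 0 to 5 against 5-FU, 0 to 3 for cisplatin+ICB against cisplatin, 0 to 1 for 5-FU against cisplatin, 0 to 2 for 5-FU+ICB against cisplatin+ICB and 0 to 3 for the interaction of 5-FU with ICB. Where the counts of 5-FU+ICB against 5-FU and cisplatin+ICB and of the interaction were highest, 10.9%, 6.1% and 9.27% of all genes were called. Of the 22 isozyme tests, 0 to 13 passed, but with a PBS tumor left out the smallest p that a comparison with PBS could give did not pass the adjustment, so the counts of 0 there say nothing about stability.

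Values near 0 changed sign. With ICB, Pgk1 was at 0.31 with the covariate and 0.37 without the tumors of low slope, and Ldha at 0.058 and 0.039. With 5-FU, Hk1 was at -0.015 without these tumors, and Pfkp at -0.026 with the replicate block, -0.0079 with 6 groups joined and -0.0055 without these tumors. Over the tumors left out in turn, Aldoa with ICB ranged from -0.0089 to 0.20, Pgk1 with ICB from -0.26 to 0.076 and Pfkp with 5-FU from -0.083 to 0.092.

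The replicate numbers only name tumors. Over 66 pairs of tumors of different groups with the same number, the median correlation of their deviations from the group means was -0.02, against 0.01 over 260 pairs with different numbers. With the number as a block the counts were 4 for ICB, 6 for 5-FU, 6 for 5-FU+ICB and 0 for cisplatin+ICB against PBS, 1 for 5-FU+ICB against ICB and 0 for 5-FU against cisplatin.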
